A study of Mus musculus with 12 samples.

Results

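High-fat feeding was compared with a normal diet in mouse livers that had all been injured by ischemia and reperfusion. The comparison used the 3 HFD-IRI libraries against the 3 ND-IRI libraries, which are 6 of the 12 in the series, and covered 13364 tested genes of 25947 entries in the deposited table. Feeding lasted 4 months in mice labelled WT, with either normal chow (ND) or high-fat chow (HFD), the second meant to make the liver fatty. In both groups compared, the left and middle branches of the hepatic pedicle were tied for 1 h and tissue was taken 6 h after the tie was removed (IRI). The remaining 6 libraries, ND-Sham and HFD-Sham, came from mice on the same diets whose pedicle was exposed but not tied, and they were used here to show what each diet difference was without injury. Strain, sex, age and the composition of the diets are not in the labels.

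Ischemia-reperfusion starves hepatocytes of oxygen and then returns it, which brings oxidative stress, cell death and an influx of neutrophils. A fatty liver takes up and stores more fatty acid, and the nuclear receptor PPAR-alpha responds to fatty acids by inducing enzymes of mitochondrial, peroxisomal and omega-oxidation. Many mouse liver genes also differ between the sexes, because the pulsatile growth hormone of males and the steadier growth hormone of females act on hepatocytes through STAT5b and the factors BCL6 and CUX2.

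The values were TPM, which are scaled by transcript length and to the same total in each library, so that sequencing depth is unknown and no counting interval can be given. Tests were made with limma on log2(TPM + 1), two-sided, with 0.05 as the threshold on the adjusted p for calling a gene. Log2 differences are HFD-IRI minus ND-IRI so defined, and they come out too small for genes near 0 TPM. Values are listed in the order of libraries 1, 2 and 3. For any 1 gene, exact permutation of 3 against 3 libraries has a smallest p of 0.1. The labels say only that the samples are separate, so the spread behind the p-values is that among these samples and could be technical. In bulk tissue, fewer cells of a type and less RNA per cell cannot be told apart.

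The 6 injured libraries held 19141 to 20425 genes above 0 TPM, with 44.4% to 47.6% of each taken up by its top 50 genes. Mitochondrially encoded transcripts took 9.43% to 11.7% of the ND-IRI libraries and 12.1% to 15.2% of the HFD-IRI libraries. The first principal component of the 6 libraries, 40.4% of their variance, placed the diets on opposite sides, and the second, 33.1%, set ND-IRI 1 (score 39.8) apart from ND-IRI 2 and ND-IRI 3 (both -16.3), with HFD-IRI 3 at 18.3, HFD-IRI 1 at -1.68 and HFD-IRI 2 at -23.8. Without ND-IRI 1 the test called 609 genes, 320 higher and 289 lower, and 15 of the 105 called genes named by rule lost their call, while none changed sign. The 15 were Acacb, Col1a1, Cyp2b13, Cyp3a11, Dusp5, Enho, Esr1, Fosl1, Ly6d, Mlxipl, Serpina10, Serpina12, Slc2a1, Tlr8 and mt-Cytb. Hepatocyte markers fitted the tissue label: albumin (Alb) stood at 87107, 72971 and 63881 TPM in ND-IRI and 65522, 65207 and 73329 TPM in HFD-IRI. Of the markers of other tissues, the 10 of striated muscle summed to at most 1.59 TPM in any injured library. The 17 of adipocytes, exocrine pancreas and gut summed to 134 to 145 TPM in ND-IRI and 339 to 445 TPM in HFD-IRI, of which Fabp2 made 98.6 to 106 TPM and 300 to 359 TPM. Adiponectin (Adipoq), which defines adipocytes, was at most 0.14 TPM and the pancreatic protease Prss2 was at 0. The part of such cells in the results was not tested.

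Livers of mice on the high-fat and the normal diet differed after injury in 516 genes, 3.86% of those tested. Of these, 318 (2.38%) were higher and 198 (1.48%) lower in HFD-IRI, and 135 and 111 of them by at least 1 on the log2 scale. The 3 libraries of one diet did not overlap with the 3 of the other for any called gene, while 20.1% of all tested genes had groups that did not overlap. The median log2 difference of all tested genes was 0.04. Leaving out ND-IRI 2, ND-IRI 3, HFD-IRI 1 or HFD-IRI 2 lowered the number of calls to 240, 304, 253 and 294. Fitting the 6 injured libraries alone gave 304 calls.

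**Figure D1:**
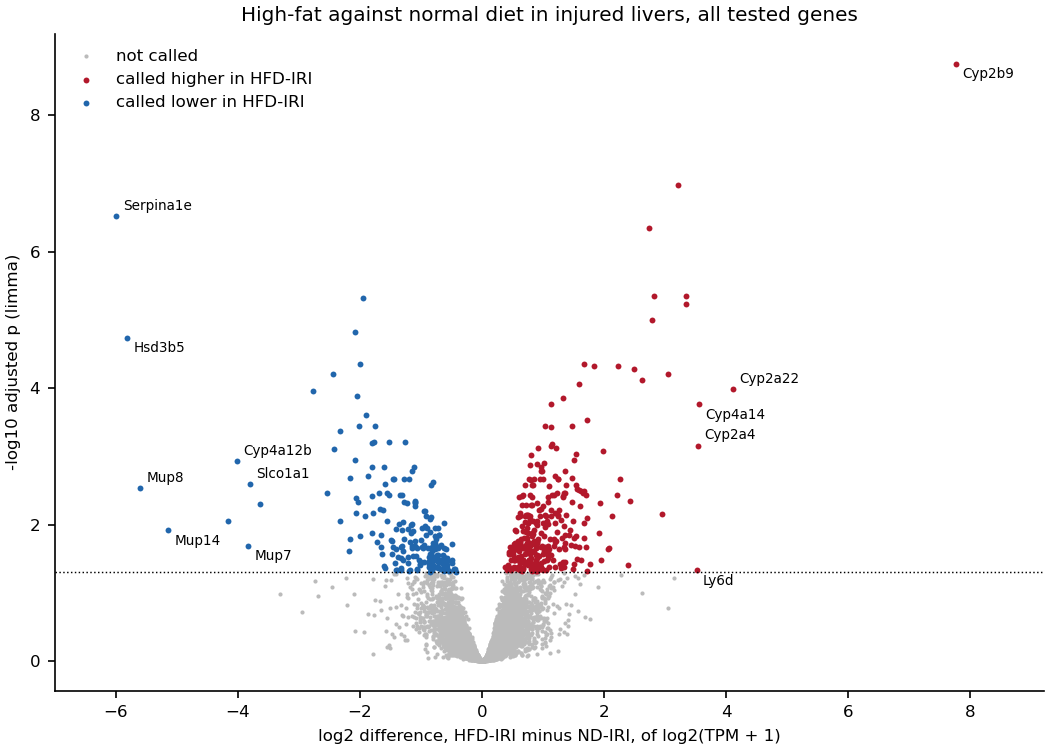
Each point is 1 of the 13364 tested genes, with the log2 difference between HFD-IRI and ND-IRI on the horizontal axis and -log10 of the adjusted p on the vertical axis. The dotted line marks an adjusted p of 0.05, and Cyp2b9 (7.77) and Serpina1e (-5.99) lie at the far right and left of the called genes.

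The 12 largest rises were Cyp2b9, Cyp2a22, Cyp4a14, Cyp2a4, Ly6d, Slc22a27, Cyp4a10, Cd36, Mogat1, Apoa4, Vnn1 and Slc22a29, and the 12 largest falls were Serpina1e, Hsd3b5, Mup8, Mup14, Cyp4a12b, Mup7, Slco1a1, Selenbp2, Slc22a28, Nat8f5, C6 and Mmp10. Among them were cytochromes P450, organic ion transporters, genes of lipid handling, major urinary proteins and a complement component. Close relatives among the Mup, Cyp2a, Cyp2b, Cyp2c, Cyp4a, Serpina1 and Slc22a genes are similar enough in sequence to share reads, which makes the change of any 1 of them uncertain.

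**Figure D2:**
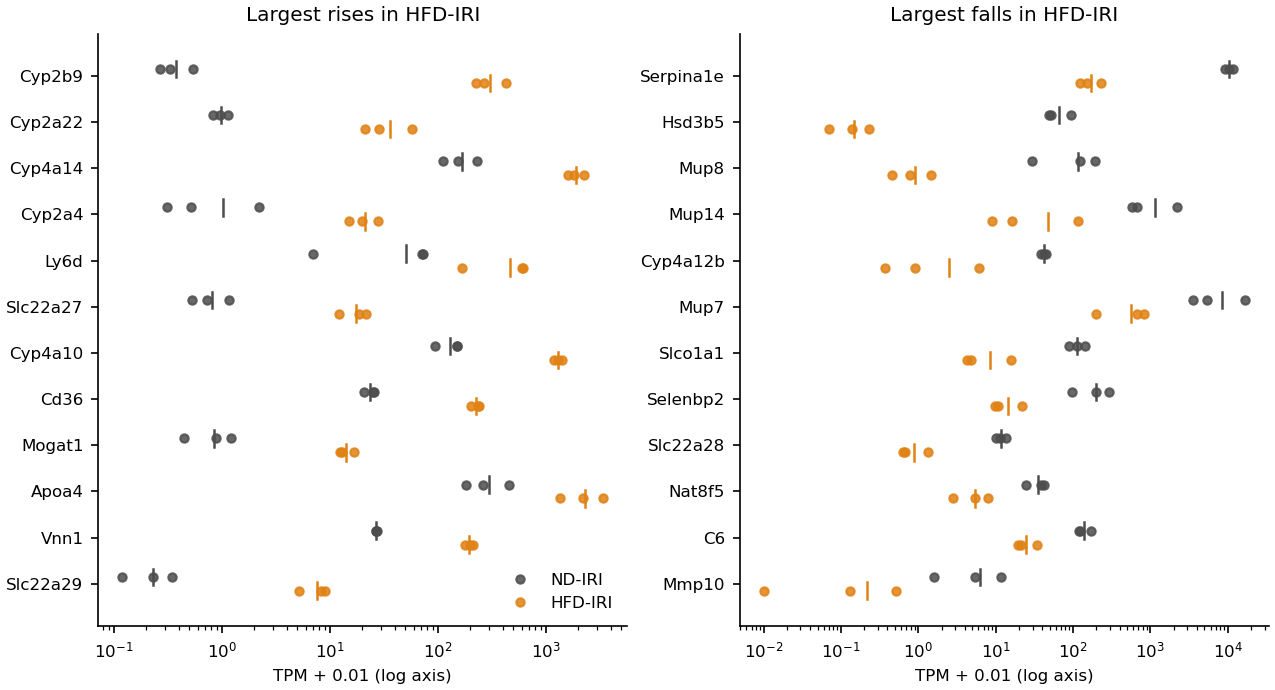
Points are TPM + 0.01 of single libraries on a log axis for the 12 largest rises (left) and the 12 largest falls (right), with ND-IRI in grey, HFD-IRI in orange and a short line at each group's mean. In every row the 3 grey and the 3 orange points are separated, which was a condition for naming these genes. For Cyp2b9 ND-IRI reached 0.53 TPM and HFD-IRI began at 226 TPM.

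Genes that are typical of female mouse liver led the rises. Cyp2b9, a steroid-hydroxylating cytochrome P450 expressed in female and hardly in male mouse liver, stood at 0.26, 0.32 and 0.53 TPM in ND-IRI and 226, 267 and 430.1 TPM in HFD-IRI. Every HFD-IRI library was far above every ND-IRI library, and the log2 difference was 7.77, SE 0.22, adjusted p = 1.74e-09. Its neighbours in the same gene cluster rose with it. Cyp2a22 went from 0.83, 1.14 and 0.96 TPM in ND-IRI to 21.3, 28.8 and 58.1 TPM in HFD-IRI, a log2 difference of 4.11, SE 0.38, adjusted p = 0.000102. For Cyp2a4, a testosterone 15-alpha-hydroxylase, the libraries held 0.51, 0.3 and 2.23 TPM in ND-IRI and 15.3, 19.9 and 28.4 TPM in HFD-IRI, with a log2 difference of 3.54, SE 0.42, adjusted p = 0.000696. HFD-IRI 3 was the highest library for Cyp2b9, Cyp2a22 and Cyp2a4 alike. Cyp2b13 was at 0, 0.09 and 0.12 TPM in ND-IRI and 1.16, 4.95 and 12.7 TPM in HFD-IRI and was called (2.39, SE 0.57, adjusted p = 0.0393), but lost the call without ND-IRI 1, ND-IRI 2, ND-IRI 3, HFD-IRI 2 or HFD-IRI 3 (adjusted p from 0.0792 to 0.12). In the RefSeq table of build GRCm38.p6, 13 genes and pseudogenes of the Cyp2a and Cyp2b families lie on chromosome 7, and 7 of them were tested. Of these, 4 were called higher, none lower, and 3 were not called, namely Cyp2b10 (-1.07, SE 0.48, adjusted p = 0.31), Cyp2a5 (1.52, SE 0.396, adjusted p = 0.0567) and Cyp2a12 (0.38, SE 0.11, adjusted p = 0.101).

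The sequence before the start of the transcript is given for Cyp2b9, Cyp2a22 and Cyp2a4, the 3 of the 12 largest rises with the largest log2 difference and a single promoter in the RefSeq table (8 of the 12 had 1), since they share a chromosomal cluster and a direction. Each run is 250 bases, written 5′ to 3′ on the gene's strand, from RefSeq promoters of build GRCm38.p6, which is not the build of the deposited values. The windows are chr7:26173159-26173408 on the + strand for Cyp2b9, chr7:26939387-26939636 on the - strand for Cyp2a22 and chr7:26306942-26307191 on the + strand for Cyp2a4. Capitals mark AGGTCA, the 6-letter core that many nuclear receptors bind, searched on both strands.
Cyp2b9: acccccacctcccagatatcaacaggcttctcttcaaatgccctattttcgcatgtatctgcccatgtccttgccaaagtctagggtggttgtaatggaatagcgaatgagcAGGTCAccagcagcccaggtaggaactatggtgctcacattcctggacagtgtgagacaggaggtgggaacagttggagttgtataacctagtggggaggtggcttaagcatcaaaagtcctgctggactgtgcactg
Cyp2a22: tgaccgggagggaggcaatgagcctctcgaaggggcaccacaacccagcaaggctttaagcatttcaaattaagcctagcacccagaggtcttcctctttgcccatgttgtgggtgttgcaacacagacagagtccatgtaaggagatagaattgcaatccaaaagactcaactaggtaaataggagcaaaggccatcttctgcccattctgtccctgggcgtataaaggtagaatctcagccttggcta
Cyp2a4: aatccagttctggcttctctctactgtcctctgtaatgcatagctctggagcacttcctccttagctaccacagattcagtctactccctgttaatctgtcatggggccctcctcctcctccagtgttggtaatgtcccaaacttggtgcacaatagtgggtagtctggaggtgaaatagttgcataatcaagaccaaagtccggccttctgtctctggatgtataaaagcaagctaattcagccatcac
The hexamer was present once in the Cyp2b9 window, beginning 138 bases upstream, and these letters are not in the Cyp2a22 and Cyp2a4 windows. By comparison, 4607 of 32851 promoter windows in the table (14.0%) held it, as did 884 of 7996 tested genes with a single promoter (11.1%), 21 of 163 such genes called higher (12.9%) and 26 of 124 called lower (21.0%). A match is a run of letters and not a measured binding site.

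Genes that are typical of male mouse liver led the falls. Serpina1e, a mouse paralog of the protease inhibitor alpha-1 antitrypsin, stood at 9338, 10249 and 11873 TPM in ND-IRI and 153, 124 and 229.6 TPM in HFD-IRI, a mean 62.2-fold lower and a log2 difference of -5.99, SE 0.28, adjusted p = 2.96e-07. Hsd3b5, a male-specific 3-ketosteroid reductase, was 94.7, 49.2 and 52.6 TPM in ND-IRI and 0.13, 0.22 and 0.06 TPM in HFD-IRI, so that no HFD-IRI library reached 1 TPM, and its log2 difference was -5.81, SE 0.44, adjusted p = 1.83e-05. Several major urinary proteins, which carry pheromones in male urine, were lower as well. Of the Mup genes in the list of sex-biased genes described below, Mup1, Mup10, Mup11, Mup12 and Mup17 were not called. Mup7 was at 3596, 5413 and 16594 TPM in ND-IRI and 825, 201 and 669.7 TPM in HFD-IRI (-3.83, SE 0.799, adjusted p = 0.0204). Mup14 held 671, 587 and 2215 TPM in ND-IRI and 117, 16.03 and 8.93 TPM in HFD-IRI (-5.14, SE 0.97, adjusted p = 0.0121). Mup8 held 29.2, 122 and 195 TPM in ND-IRI and 1.47, 0.45 and 0.78 TPM in HFD-IRI (-5.598, SE 0.82, adjusted p = 0.0029). Groups did not overlap for Mup7, Mup14 or Mup8, as for every called gene. The ND-IRI libraries themselves spanned a wide range, with ND-IRI 3 highest each time. The call of Mup7 was lost without ND-IRI 2, ND-IRI 3 or HFD-IRI 2 (adjusted p from 0.0586 to 0.0803), and that of Mup14 without ND-IRI 3 or HFD-IRI 2 (adjusted p = 0.0526 and 0.0559).

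Over the whole list of sex-biased genes and growth hormone targets, 3 of 29 tested members (10.3%) were higher, 11 (37.9%) were lower and 15 did not pass. Of all tested genes, 2.38% were higher and 1.48% lower. The median log2 difference of the list was -1.29 against 0.04 for all genes. The remaining members called lower were C6, C8a, Cyp4a12a, Cyp7b1, Cyp2d9, Mup3, Mup20 and Mup21, and the third member called higher was Cyp17a1, which makes androgen precursors (5.57, 9.02 and 6.35 TPM in ND-IRI and 29.1, 26.1 and 34.9 TPM in HFD-IRI, log2 difference 1.97, SE 0.24, adjusted p = 0.000841). Cyp2d9, a male-biased steroid hydroxylase, fell from 844, 778 and 896 TPM in ND-IRI to 421, 260.1 and 368 TPM in HFD-IRI (-1.29, SE 0.18, adjusted p = 0.00217). Summed over the list, TPM were 44500 to 71200 in ND-IRI and 12800 to 16900 in HFD-IRI. The growth hormone receptor Ghr was not called (0.17, SE 0.13, adjusted p = 0.639), nor was the target Igf1 (-0.17, SE 0.15, adjusted p = 0.693). Both genes were looked up after values were seen, as were Cidea, Cfd, Cpt1a and the uncalled Cyp2a, Cyp2b and Cyp4a genes. Cux2, the female-biased factor, was at or below 0.12 TPM in all 6 injured libraries. All 12 libraries held the Y-linked transcripts Ddx3y, Eif2s3y, Kdm5d and Uty (Ddx3y from 35.9 to 67.6 TPM) and at most 0.07 TPM of Xist, the transcript of the inactive X chromosome. Members called lower numbered 9, 7 and 8 without ND-IRI 1, 2 or 3, and 10, 8 and 9 without HFD-IRI 1, 2 or 3.

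Genes of fatty acid uptake and triglyceride synthesis were the next group with calls in 1 direction. Of 21 tested members, 6 (28.6%) were higher and none was lower, against 2.38% and 1.48% of all tested genes. The median log2 difference was 0.49. Cd36, the fatty acid translocase of the cell surface, was at 20.7, 25.9 and 25.1 TPM in ND-IRI and 243, 239 and 205 TPM in HFD-IRI, a mean 9.58-fold higher with a log2 difference of 3.21, SE 0.13, adjusted p = 1.05e-07. The spread within each diet was small beside the gap between them. Mogat1, an acyltransferase that makes diacylglycerol, was near or below 1 TPM in ND-IRI and above 10 TPM in HFD-IRI (0.44, 0.88 and 1.21 TPM in ND-IRI and 16.7, 12.5 and 13 TPM in HFD-IRI, log2 difference 3.04, SE 0.27, adjusted p = 6.13e-05). Fabp2, a fatty acid binding protein best known from the intestine, reached 103, 106 and 98.6 TPM in ND-IRI and 359, 300.1 and 330.4 TPM in HFD-IRI (1.67, SE 0.14, adjusted p = 4.47e-05). Vldlr, the very low density lipoprotein receptor, was low in both groups, at 0.35, 0.33 and 0.37 TPM in ND-IRI and 1.88, 3.72 and 1.95 TPM in HFD-IRI (1.34, SE 0.204, adjusted p = 0.00348). The fatty acid transporters Slc27a1 (1.17, SE 0.18, adjusted p = 0.00371) and Slc27a2 (0.63, SE 0.13, adjusted p = 0.016) completed the 6. Between 5 and 7 members were higher under all 15 alternatives.

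Lipid droplet genes gave fewer calls. Mgll, which splits monoacylglycerol, was at 34.1, 32.4 and 37.8 TPM in ND-IRI and 105, 85.1 and 63.5 TPM in HFD-IRI (1.23, SE 0.19, adjusted p = 0.00339). The droplet-associated dehydrogenase Hsd17b11 was at 96.5, 82.7 and 84.7 TPM in ND-IRI and 176, 169 and 172 TPM in HFD-IRI (0.96, SE 0.13, adjusted p = 0.00162). The fat storage-inducing protein Fitm1 was at 26.3, 29.9 and 39.99 TPM in ND-IRI and 95.3, 59.7 and 69.2 TPM in HFD-IRI (1.19, SE 0.24, adjusted p = 0.0181). These were the 3 of 17 members called (17.6%, against 2.38% called higher of all genes), with none lower and a median of 0.59. Fitm1 lost its call without ND-IRI 2 or HFD-IRI 1 (adjusted p = 0.0736 and 0.08). Cidec, which fuses lipid droplets and is a marker of steatosis, did not pass: the libraries held 38.9, 53.6 and 72.1 TPM in ND-IRI and 216, 202 and 69.3 TPM in HFD-IRI, so that HFD-IRI 3 lay below ND-IRI 3 (log2 difference 1.43, SE 0.54, adjusted p = 0.204, 95% interval 0.26 to 2.59). The receptor Pparg, which drives fat storage, did not pass either, at 8.34, 7.53 and 7.68 TPM in ND-IRI and 13.4, 8.37 and 15.02 TPM in HFD-IRI (0.55, SE 0.24, adjusted p = 0.306, interval 0.01 to 1.08). Cidea, a droplet protein that normal liver hardly expresses, had the largest estimate of the list without passing, at 0.27, 0.77 and 0.1 TPM in ND-IRI and 44.4, 8.23 and 3.11 TPM in HFD-IRI (3.15, SE 0.83, adjusted p = 0.0605). In sham livers, which are other libraries, 10 of the 17 droplet genes were called higher, Cidec among them, against 4.63% of all genes tested. The test of whether the diet difference itself differed between injured and sham livers called none of the 17.

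Lipoprotein genes moved unevenly, with 3 of 20 higher and 1 lower. Apoa4, an apolipoprotein of triglyceride-rich particles, was at 184, 264 and 459 TPM in ND-IRI and 3418, 2199 and 1351 TPM in HFD-IRI (2.94, SE 0.503, adjusted p = 0.00703). Angptl4, a fasting-induced inhibitor of lipoprotein lipase, was at 373, 285 and 302 TPM in ND-IRI and 674, 794 and 625 TPM in HFD-IRI (1.13, SE 0.25, adjusted p = 0.0284). Apoe, the ligand for remnant clearance, was at 17726, 16057 and 16248 TPM in ND-IRI and 23639.6, 24032 and 28059 TPM in HFD-IRI (0.595, SE 0.12, adjusted p = 0.0206). Apom, which carries sphingosine-1-phosphate in plasma, was lower at 350.3, 352 and 349.6 TPM in ND-IRI and 192, 175 and 257 TPM in HFD-IRI (-0.77, SE 0.14, adjusted p = 0.0112). The Apoa4 call held under every alternative. That of Apoe was lost without ND-IRI 2, ND-IRI 3, HFD-IRI 1, HFD-IRI 2 or HFD-IRI 3 (adjusted p from 0.0517 to 0.0883) and under both scalings that gave it a value, median-ratio scaling and quantile normalization. Over all alternatives the adjusted p of Apoe reached 0.649. Angptl4 lost its call without ND-IRI 2, ND-IRI 3, HFD-IRI 1, HFD-IRI 2 or HFD-IRI 3 (adjusted p from 0.0501 to 0.116). Apom lost its call without HFD-IRI 1 (adjusted p = 0.0555). Vnn1, a pantetheinase induced by PPAR-alpha, was at 26.8, 26.7 and 27.8 TPM in ND-IRI and 181, 199 and 211 TPM in HFD-IRI and was also among the largest rises (2.81, SE 0.18, adjusted p = 4.48e-06).

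Fatty acid oxidation and ketogenesis had the highest share of members called higher among the 37 pathway and zonation lists. Of 27 tested members, 14 (51.9%, against 2.38% of all genes) were higher, none was lower, and 26 had a positive log2 difference, with a median of 0.78. Hadh, the 3-hydroxyacyl-CoA dehydrogenase of mitochondria, was at 107, 84.8 and 99.3 TPM in ND-IRI and 227, 284 and 227 TPM in HFD-IRI (1.33, SE 0.13, adjusted p = 0.000141). Eci1, the isomerase that lets unsaturated chains enter the cycle, was at 97.1, 83.9 and 97.3 TPM in ND-IRI and 221, 177 and 218 TPM in HFD-IRI (1.13, SE 0.11, adjusted p = 0.000171). Bdh1, which forms 3-hydroxybutyrate, was at 59.6, 58.99 and 51.4 TPM in ND-IRI and 124, 107 and 117 TPM in HFD-IRI (1.02, SE 0.13, adjusted p = 0.00123). The groups did not overlap for any of these 3, as for every called gene. Other called members were Slc25a20, Acadl, Acadm, Acads, Hadha, Hadhb, Acaa1a, Acaa1b and Hsd17b4, with log2 differences from 0.54 to 1.12. Summed over the list, TPM were 7170 to 8930 in ND-IRI, 11600 to 12200 in HFD-IRI, 12800 to 14700 in ND-Sham and 17400 to 22300 in HFD-Sham. The entry enzyme Cpt1a was not called (-0.13, SE 0.14, adjusted p = 0.781, interval -0.43 to 0.18). Members called higher numbered 15, 10 and 11 without ND-IRI 1, 2 or 3, and 11, 13 and 12 without HFD-IRI 1, 2 or 3, and the lowest number over all alternatives was 9.

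**Figure D3:**
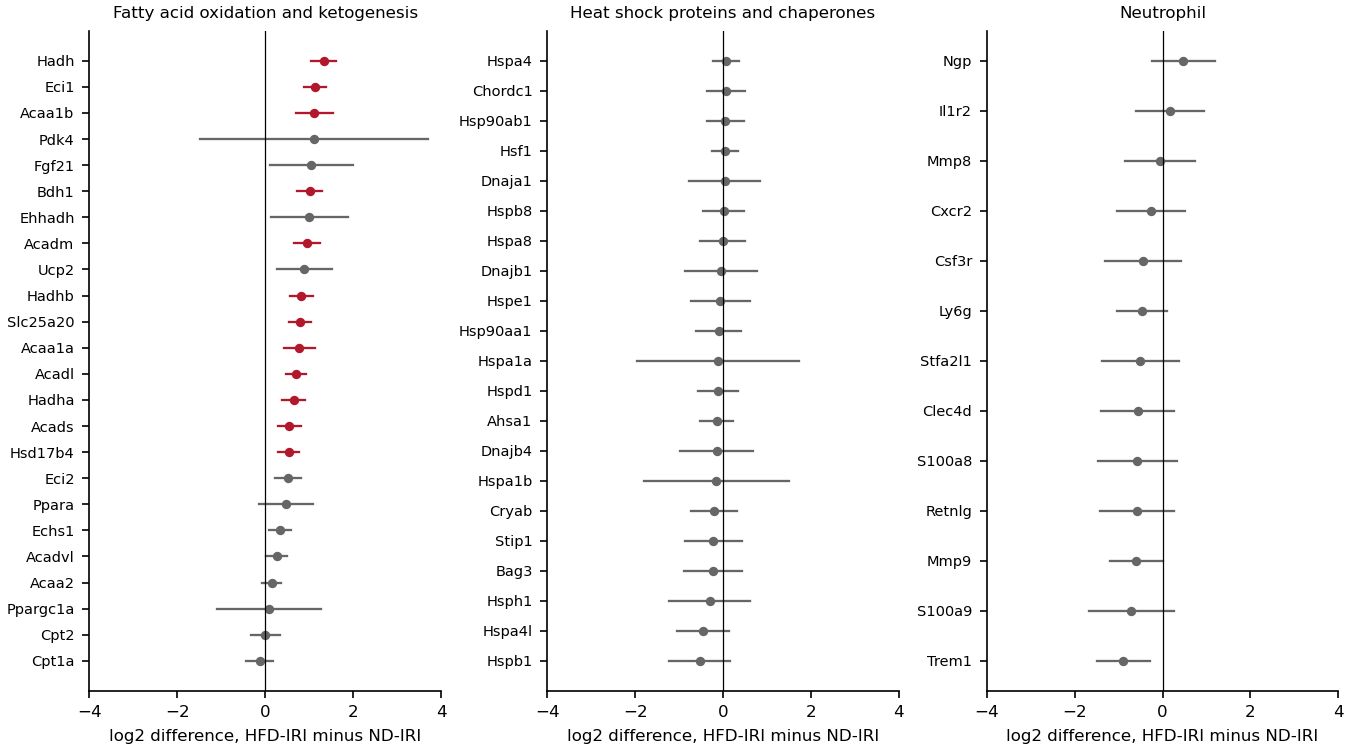
Points are log2 differences between HFD-IRI and ND-IRI with their 95% intervals from the fit, for the members drawn of 3 lists, and red marks members called higher. Of the 24 oxidation and ketogenesis genes drawn 12 are red, and none of the 21 heat shock and chaperone genes or the 13 neutrophil genes is called.

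Omega-oxidation, in which Cyp4a enzymes hydroxylate the far end of a fatty acid, split into opposite directions. Cyp4a14 was higher, at 234, 112 and 155 TPM in ND-IRI and 1612, 1816 and 2258 TPM in HFD-IRI (3.55, SE 0.35, adjusted p = 0.000171). So was Cyp4a10, at 151, 93.6 and 149.7 TPM in ND-IRI and 1301, 1208 and 1425 TPM in HFD-IRI (3.34, SE 0.21, adjusted p = 4.48e-06). For both genes every HFD-IRI value was still below the mean of either sham group, given further on. The male-biased Cyp4a12a and Cyp4a12b were lower in HFD-IRI than in ND-IRI. For Cyp4a12b the values were 44.3, 38.9 and 42.2 TPM in ND-IRI and 6.12, 0.89 and 0.36 TPM in HFD-IRI (-4.02, SE 0.51, adjusted p = 0.00116). Cyp4a12a was at 191, 233 and 272 TPM in ND-IRI and 59.7, 23.98 and 88.8 TPM in HFD-IRI (-2.17, SE 0.43, adjusted p = 0.0163), and its call was lost without ND-IRI 2 or ND-IRI 3 (adjusted p = 0.0622 and 0.0635). In the RefSeq table the Cyp4a family lies on chromosome 4 in the order Cyp4a12a, Cyp4a12b, Cyp4a14, Cyp4a10, Cyp4a31 and Cyp4a32 when untested members are left out, so the 2 genes called lower and the 3 called higher stand in separate stretches of 1 cluster. Cyp4a32 was not called (1.12, SE 0.296, adjusted p = 0.0587). Aldh3a2, the fatty aldehyde dehydrogenase that follows omega-hydroxylation, was at 79.7, 76.8 and 93.4 TPM in ND-IRI and 242, 267 and 243 TPM in HFD-IRI (1.58, SE 0.14, adjusted p = 8.61e-05). The acyl-CoA thioesterase Acot3, which releases free fatty acid, was at 3.8, 2.76 and 2.28 TPM in ND-IRI and 8.59, 9.67 and 16.9 TPM in HFD-IRI (1.65, SE 0.25, adjusted p = 0.00345). Over the list, 6 of 17 members were higher (35.3%) and 3 lower (17.6%), against 2.38% and 1.48% of all genes. The median was 0.64, and the third member called lower was Cyp4f14 (-1.27, SE 0.205, adjusted p = 0.00473).

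Among the phase I enzymes that oxidise drugs and steroids, 8 of 40 were higher (20.0%) and 5 lower (12.5%), with a median of -0.04. Of all genes 2.38% were higher and 1.48% lower. Cyp2e1, which metabolises ethanol and paracetamol in pericentral hepatocytes, was at 2719, 2164 and 2531 TPM in ND-IRI and 9063, 7723 and 9682 TPM in HFD-IRI, a mean 3.57-fold higher (1.84, SE 0.15, adjusted p = 4.75e-05). Cyp2c38 was at 12.7, 11.7 and 14.7 TPM in ND-IRI and 86.01, 89.5 and 102 TPM in HFD-IRI (2.74, SE 0.14, adjusted p = 4.55e-07). Cyp2c39, a retinoic acid hydroxylase, was at 0.65, 0.71 and 1.52 TPM in ND-IRI and 12.1, 6.9 and 11.2 TPM in HFD-IRI (2.49, SE 0.21, adjusted p = 5.19e-05). In the other direction, the carboxylesterase Ces2a was at 517, 316 and 363 TPM in ND-IRI and 98.8, 86.7 and 95.7 TPM in HFD-IRI (-2.05, SE 0.197, adjusted p = 0.000131). Cyp3a11, the main drug-oxidising Cyp3a of mouse liver, was at 1924, 1147 and 1938 TPM in ND-IRI and 890.04, 639.9 and 605 TPM in HFD-IRI (-1.21, SE 0.29, adjusted p = 0.0364). Ces2a, Cyp2c38 and Cyp2c39 kept their calls in 15 of 15 alternatives and Cyp2e1 in the 14 that gave it a value, while Cyp3a11 lost its call without ND-IRI 1, ND-IRI 3, HFD-IRI 1, HFD-IRI 2 or HFD-IRI 3 (adjusted p from 0.0531 to 0.126).

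Conjugating enzymes and targets of the oxidative stress factor NRF2 gave calls in both directions. Of 30 members, 2 were higher (6.67%) and 5 lower (16.7%), against 2.38% and 1.48% of all genes. The estimates were positive for 17 and negative for 13, those at an unadjusted p under 0.05 were 6 positive and 6 negative, and the median was 0.19. Gstp1, a glutathione transferase abundant in male mouse liver, was at 2104, 2216 and 2301 TPM in ND-IRI and 559, 610.02 and 534 TPM in HFD-IRI, a mean 3.89-fold lower (-1.96, SE 0.13, adjusted p = 4.68e-06). The glucuronosyltransferase Ugt2b38 was at 31.6, 46.9 and 72.9 TPM in ND-IRI and 10.3, 6.98 and 9.03 TPM in HFD-IRI (-2.33, SE 0.26, adjusted p = 0.000418). The glutathione transferase Gsta2 was at 95.5, 76.4 and 94.8 TPM in ND-IRI and 23.7, 32.6 and 55.9 TPM in HFD-IRI (-1.31, SE 0.25, adjusted p = 0.0121), with HFD-IRI 3 the highest of its group. Ugt2b1 (-0.85, SE 0.16, adjusted p = 0.013) was lower as well. Higher were Ugt1a1, which conjugates bilirubin, at 83.7, 61.8 and 84.96 TPM in ND-IRI and 127, 121 and 130.2 TPM in HFD-IRI (0.72, SE 0.12, adjusted p = 0.00733), and Gstt1 (0.53, SE 0.12, adjusted p = 0.031), whose call was lost without ND-IRI 2, ND-IRI 3, HFD-IRI 1 or HFD-IRI 3 (adjusted p from 0.0854 to 0.141). Over all alternatives the adjusted p of Gstt1 reached 0.219. Gsta2 lost its call without HFD-IRI 2 (adjusted p = 0.0511) and Ugt2b1 without ND-IRI 3 (adjusted p = 0.058). The oxidative stress gene Hmox1, which degrades heme, was not called, at 981, 943 and 1183 TPM in ND-IRI and 1508, 967 and 1154 TPM in HFD-IRI (0.21, SE 0.42, adjusted p = 0.905, interval -0.72 to 1.13).

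Bile acid genes divided evenly, with 3 of 21 higher and 3 lower (14.3% each, against 2.38% and 1.48% of all genes). Slco1a1, a male-biased uptake transporter, was at 141, 88.2 and 113 TPM in ND-IRI and 15.9, 4.86 and 4.3 TPM in HFD-IRI (-3.81, SE 0.55, adjusted p = 0.00253). Cyp2c70, which makes the muricholic acids of mice, was at 606, 673 and 753 TPM in ND-IRI and 139.8, 202 and 204 TPM in HFD-IRI (-1.905, SE 0.197, adjusted p = 0.000247). The oxysterol hydroxylase Cyp7b1 was at 133, 185 and 250.2 TPM in ND-IRI and 64.8, 45.8 and 46.97 TPM in HFD-IRI (-1.7997, SE 0.28, adjusted p = 0.00385). The uptake transporter Slco1b2 was higher at 220.3, 136 and 159.6 TPM in ND-IRI and 399, 318 and 369 TPM in HFD-IRI (1.09, SE 0.16, adjusted p = 0.00273), as were the basolateral exporter Abcc3 (0.62, SE 0.11, adjusted p = 0.0075) and the phospholipid exporter Abcb4 (0.79, SE 0.18, adjusted p = 0.0334). Abcb4 lost its call without ND-IRI 2, ND-IRI 3, HFD-IRI 1, HFD-IRI 2 or HFD-IRI 3 (adjusted p from 0.0732 to 0.13), and the other 5 kept theirs whichever library was left out. Of the Slc22a organic ion transporters, Slc22a27 rose from 1.15, 0.52 and 0.72 TPM in ND-IRI to 12.3, 18.8 and 21.6 TPM in HFD-IRI (3.35, SE 0.22, adjusted p = 5.78e-06) and Slc22a29 from 0.22, 0.11 and 0.34 TPM in ND-IRI to 5.23, 8.37 and 9.08 TPM in HFD-IRI (2.78, SE 0.195, adjusted p = 1.01e-05). In contrast, Slc22a28 fell from 13.4, 10.2 and 11.4 TPM in ND-IRI to 1.34, 0.67 and 0.63 TPM in HFD-IRI (-2.77, SE 0.26, adjusted p = 0.000111).

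Hepatocytes differ along the lobule, those around the central vein carrying detoxification and those around the portal vein carrying ureagenesis. Pericentral genes were called higher in 5 of 21 cases (23.8%, against 2.38% of all genes) and lower in none, with a median of 0.37. Besides Cyp2e1 and Aldh3a2 these were Oat, which makes glutamate from ornithine (351, 456 and 554 TPM in ND-IRI and 893, 1085 and 1107 TPM in HFD-IRI, log2 difference 1.198, SE 0.204, adjusted p = 0.00678), Lect2 (73.7, 82.3 and 105 TPM in ND-IRI and 210.3, 209 and 256 TPM in HFD-IRI, log2 difference 1.37, SE 0.24, adjusted p = 0.00727) and the vitamin C enzyme Gulo (0.61, SE 0.15, adjusted p = 0.0364). Summed pericentral TPM were 4830 to 5900 in ND-IRI and 12200 to 14700 in HFD-IRI, against 18000 to 20600 in ND-Sham and 18700 to 24900 in HFD-Sham, and Cyp2e1 alone made up a large part of each sum. Periportal genes were called lower in 5 of 19 cases (26.3%, against 1.48% of all genes) and higher for Apoa4, with a median of -0.55. Hal, the first enzyme of histidine breakdown, was at 134, 125 and 103 TPM in ND-IRI and 35.4, 29.4 and 55.1 TPM in HFD-IRI (-1.61, SE 0.21, adjusted p = 0.00146). Cyp2f2 was at 1064, 932 and 1186 TPM in ND-IRI and 590.4, 554 and 666 TPM in HFD-IRI (-0.81, SE 0.12, adjusted p = 0.00235). The liver glutaminase Gls2 was at 243, 170.3 and 183 TPM in ND-IRI and 80.7, 90.05 and 129 TPM in HFD-IRI (-0.996, SE 0.1997, adjusted p = 0.0169). Etnppl, a phospholyase, was at 60.4, 36.3 and 41.3 TPM in ND-IRI and 7.24, 13.8 and 21.2 TPM in HFD-IRI (-1.72, SE 0.35, adjusted p = 0.0177). Arg1, the last step of the urea cycle, was at 2333, 2805 and 2132 TPM in ND-IRI and 1315, 1620.5 and 1442 TPM in HFD-IRI (-0.73, SE 0.16, adjusted p = 0.0277). Periportal calls on the lower side numbered 5, 4 and 5 without ND-IRI 1, 2 or 3, and 2, 3 and 4 without HFD-IRI 1, 2 or 3. Gls2 was lost without HFD-IRI 1 or HFD-IRI 2 (adjusted p = 0.0768 and 0.0646), Etnppl without HFD-IRI 1 or HFD-IRI 2 (adjusted p = 0.0612 and 0.0533) and Arg1 without ND-IRI 2, HFD-IRI 1 or HFD-IRI 3 (adjusted p from 0.0707 to 0.126). Of the 25 genes of the urea cycle and amino acid breakdown, 3 were lower, Hal, Gls2 and Arg1, and none was higher.

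Complement and coagulation genes were lower in 8 of 33 cases (24.2%) and higher in 1 (3.03%), against 1.48% and 2.38% of all genes. The lower ones included 4 components of the membrane attack complex. C6 was at 170.3, 125 and 119 TPM in ND-IRI and 34.6, 21.3 and 19.2 TPM in HFD-IRI, a mean 5.51-fold lower (-2.44, SE 0.21, adjusted p = 6.13e-05). C8b was at 274, 241 and 268 TPM in ND-IRI and 64.8, 58.1 and 71.01 TPM in HFD-IRI (-2.0004, SE 0.17, adjusted p = 4.47e-05). C8a was at 505, 604 and 559 TPM in ND-IRI and 199.9, 175 and 119 TPM in HFD-IRI (-1.78, SE 0.21, adjusted p = 0.000624). C9, which forms the pore, was at 418, 336 and 477 TPM in ND-IRI and 210.02, 222 and 211 TPM in HFD-IRI (-0.92, SE 0.16, adjusted p = 0.0075). These 4 kept their calls in every fit that left out a library. F11, C3, C1ra and Vtn were lower by smaller amounts, with log2 differences from -0.86 to -0.44. The clotting factor F9 was higher, at 148, 130.2 and 134 TPM in ND-IRI and 169, 192 and 199.7 TPM in HFD-IRI (0.44, SE 0.11, adjusted p = 0.0438), a call that held in only 3 of 15 alternatives and was lost without ND-IRI 2, ND-IRI 3, HFD-IRI 1, HFD-IRI 2 or HFD-IRI 3 (adjusted p from 0.0613 to 0.168). Members called lower numbered 7, 5 and 5 without ND-IRI 1, 2 or 3, and 4, 5 and 6 without HFD-IRI 1, 2 or 3.

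Acute phase proteins, which the liver secretes during inflammation, gave 1 call higher (3.45%) and 2 lower (6.9%) among 29. Of all genes 2.38% were higher and 1.48% lower. Still, 26 of the 29 estimates were negative and the median was -0.43. Itih3 was at 799.6, 1393 and 1015 TPM in ND-IRI and 577, 545 and 498 TPM in HFD-IRI (-0.95, SE 0.197, adjusted p = 0.02). Serpina10 was at 487, 457 and 357 TPM in ND-IRI and 187, 253 and 314 TPM in HFD-IRI (-0.804, SE 0.19, adjusted p = 0.0334). The hepcidin paralog Hamp2 was higher at 29.4, 15.99 and 8.54 TPM in ND-IRI and 46.2, 50.7 and 79.7 TPM in HFD-IRI (1.77, SE 0.42, adjusted p = 0.0375). Each was lost on leaving out several libraries: Itih3 without ND-IRI 2, ND-IRI 3, HFD-IRI 1, HFD-IRI 2 or HFD-IRI 3 (adjusted p from 0.0542 to 0.075), Serpina10 without ND-IRI 1, ND-IRI 2, HFD-IRI 1 or HFD-IRI 2 (adjusted p from 0.0832 to 0.132) and Hamp2 without ND-IRI 2, ND-IRI 3, HFD-IRI 1, HFD-IRI 2 or HFD-IRI 3 (adjusted p from 0.0768 to 0.125).

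Lists of the inflammatory response to injury gave 0 or 1 call each. The share called was 3.23% of chemokines and their receptors, 2.86% of cytokines and 4.76% of Toll-like receptors, near the 3.86% of all genes tested. Neutrophil markers gave 0 calls among 13 (1 at an unadjusted p under 0.05, Trem1, named after its values were seen), with a median of -0.50, but 2 were called lower without ND-IRI 1 and 1 without HFD-IRI 3. S100a9, a calcium-binding protein of neutrophil granules, was at 126, 374 and 313 TPM in ND-IRI and 115, 103 and 282 TPM in HFD-IRI, so that the groups overlapped (-0.71, SE 0.44, adjusted p = 0.517, interval -1.68 to 0.26). S100a8 was at 50.2, 149.7 and 132 TPM in ND-IRI and 56.6, 46.4 and 113 TPM in HFD-IRI (-0.57, SE 0.41, adjusted p = 0.597, interval -1.47 to 0.33). Summed neutrophil markers were 265, 694 and 627 TPM in ND-IRI and 257, 223 and 593 TPM in HFD-IRI, and only 2 of the 13 intervals lay within 1 on either side of 0, so that a difference of that size is not resolved. Chemokines and their receptors gave 1 call among 31: Cxcl9, an interferon-gamma-induced attractant of T cells, was at 6.1, 10.97 and 13.6 TPM in ND-IRI and 27.6, 24.3 and 32.7 TPM in HFD-IRI (1.43, SE 0.27, adjusted p = 0.0121) and kept its call under every alternative. Among 35 cytokines and feedback genes, Lif of the interleukin 6 family was lower, at 5.05, 5.48 and 6.54 TPM in ND-IRI and 2.66, 2.62 and 2.31 TPM in HFD-IRI (-0.92, SE 0.18, adjusted p = 0.0143), and lost the call without ND-IRI 2 or ND-IRI 3 (adjusted p = 0.0521 and 0.0644). The call of Lif held in 12 of 15 alternatives, with adjusted p up to 0.301. Interferon-induced genes gave 0 calls among 34 (7 at an unadjusted p under 0.05), with 28 positive estimates and a median of 0.41. Iigp1, an interferon-induced GTPase, spanned 148, 492 and 328 TPM in ND-IRI and 235, 469.98 and 162 TPM in HFD-IRI and Bst2, or tetherin, 208, 219 and 221 TPM in ND-IRI and 139.7, 165 and 203 TPM in HFD-IRI. MHC class II presentation gave 0 calls among 8 (4 at an unadjusted p under 0.05), with all 8 estimates positive, a median of 0.85 and up to 4 calls among the alternatives. Of its most abundant members, the invariant chain Cd74 was at 61.9, 77.3 and 78.4 TPM in ND-IRI and 128, 144 and 163 TPM in HFD-IRI (0.99, SE 0.44, adjusted p = 0.3, interval 0.04 to 1.94). The protease Ctss was at 43.9, 78.6 and 76.7 TPM in ND-IRI and 90.4, 113 and 129 TPM in HFD-IRI (0.76, SE 0.298, adjusted p = 0.229, interval 0.11 to 1.41), and the groups did not overlap for either. The spread behind these tests came from all 12 libraries, sham ones included. In ND-Sham 1, 2 and 3 the MHC class II list summed to 486, 142 and 135 TPM. The part of ND-Sham 1 in the missing calls was not tested. Of 21 Toll-like receptors and adaptors, 1 was called, Tlr8, higher at 1.27, 1.88 and 2.1 TPM in ND-IRI and 3.31, 4.18 and 3.6 TPM in HFD-IRI (0.78, SE 0.17, adjusted p = 0.0245) but lost without ND-IRI 1, ND-IRI 2, HFD-IRI 1, HFD-IRI 2 or HFD-IRI 3 (adjusted p from 0.0581 to 0.0908).

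Lists of stress responses to the injury gave 0 to 2 calls each, against 3.86% of all genes tested. The share called was 0% of heat shock genes, 7.41% of immediate early genes and 10% of ferroptosis and iron genes, while the p53 and unfolded protein lists each had 3.12% higher and 3.12% lower. The unfolded protein list had 4 lower without ND-IRI 1. Heat shock proteins and chaperones gave 0 calls among 21 and 0 at an unadjusted p under 0.05, and 16 of the 21 intervals lay within 1 on either side of 0. Hspa8 was at 2447, 1399.6 and 1614 TPM in ND-IRI and 1352, 1575 and 2585 TPM in HFD-IRI (interval -0.51 to 0.51) and Hsp90ab1 at 2128, 1409 and 1827 TPM in ND-IRI and 1553, 1584 and 2502 TPM in HFD-IRI (interval -0.37 to 0.49), with the groups overlapping for both. Summed TPM of the list were 8330 to 15200 in ND-IRI and 8520 to 15300 in HFD-IRI, against 2540 to 2870 in ND-Sham. Of 27 immediate early genes, Fosl1, an AP-1 subunit, was higher at 4.19, 12.6 and 18.7 TPM in ND-IRI and 45.2, 47.4 and 21.4 TPM in HFD-IRI (1.72, SE 0.43, adjusted p = 0.0474). Dusp5, a phosphatase of ERK, was at 32.2, 33.1 and 55.5 TPM in ND-IRI and 99.3, 84.5 and 60.6 TPM in HFD-IRI (1.01, SE 0.24, adjusted p = 0.034). Fosl1 was lost without ND-IRI 1, ND-IRI 2, HFD-IRI 1 or HFD-IRI 2 (adjusted p from 0.0841 to 0.172), and Dusp5 without ND-IRI 1, ND-IRI 2, HFD-IRI 1 or HFD-IRI 2 (adjusted p from 0.0875 to 0.15). Among 32 genes of p53 signalling and cell death, Casp8, the initiator caspase of death receptors, was higher at 32.3, 57.8 and 57.9 TPM in ND-IRI and 109.6, 141 and 83.1 TPM in HFD-IRI (1.17, SE 0.23, adjusted p = 0.016). Gsdmd, the pore-former of pyroptosis, was lower at 28.6, 32.3 and 31.6 TPM in ND-IRI and 17.2, 19.8 and 22.3 TPM in HFD-IRI (-0.62, SE 0.14, adjusted p = 0.03). Casp8 was lost without HFD-IRI 1 or HFD-IRI 2 (adjusted p = 0.0603 and 0.0644). Gsdmd was lost without ND-IRI 2, ND-IRI 3, HFD-IRI 1 or HFD-IRI 2 (adjusted p from 0.0762 to 0.136). Of 32 genes of the unfolded protein and integrated stress responses, Edem1, which clears misfolded glycoproteins, was lower (-0.63, SE 0.13, adjusted p = 0.0224) and Vldlr higher. Edem1 was lost without ND-IRI 2, ND-IRI 3, HFD-IRI 1 or HFD-IRI 3 (adjusted p from 0.0736 to 0.103). Among 20 genes of ferroptosis and iron handling, Fth1, the ferritin heavy chain, was higher at 852, 1182 and 1301 TPM in ND-IRI and 1915, 1983 and 1645 TPM in HFD-IRI (0.75, SE 0.15, adjusted p = 0.018), and lost without HFD-IRI 1 or HFD-IRI 2 (adjusted p = 0.0719 and 0.067), and Hamp2 was the other call.

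Genes of the extracellular matrix were called higher in 6 of 41 cases (14.6%) and lower in 1 (2.44%), with a median of 0.50. Of all genes 2.38% were higher and 1.48% lower. Col1a1, a chain of the main fibrillar collagen, was at 2.44, 2.72 and 3.3 TPM in ND-IRI and 13.8, 19.3 and 9.61 TPM in HFD-IRI (1.95, SE 0.45, adjusted p = 0.0335). Its partner Col1a2 was at 2.83, 1.98 and 1.83 TPM in ND-IRI and 8.41, 11.7 and 6.69 TPM in HFD-IRI (1.61, SE 0.37, adjusted p = 0.0334). Col6a3 was at 2.66, 2.24 and 3.41 TPM in ND-IRI and 7.23, 7.15 and 6.7 TPM in HFD-IRI (1.101, SE 0.24, adjusted p = 0.0231). Col14a1 was at 15.9, 11.3 and 9.2 TPM in ND-IRI and 19.8, 24.6 and 24.6 TPM in HFD-IRI (0.89, SE 0.18, adjusted p = 0.0174). Col5a2 and the plasminogen activator Plat were also higher, while fibronectin, Fn1, was lower at 358, 495 and 390 TPM in ND-IRI and 258, 319 and 236 TPM in HFD-IRI (-0.61, SE 0.15, adjusted p = 0.0446). These calls were not stable to the choice of libraries: members called higher numbered 6, 0 and 1 without ND-IRI 1, 2 or 3, and 1, 0 and 3 without HFD-IRI 1, 2 or 3. Col1a1 was lost without ND-IRI 1, ND-IRI 2, ND-IRI 3, HFD-IRI 1 or HFD-IRI 2 (adjusted p from 0.0737 to 0.124), Col1a2 without ND-IRI 2, ND-IRI 3, HFD-IRI 1 or HFD-IRI 2 (adjusted p from 0.0992 to 0.123), Col6a3 without ND-IRI 2, HFD-IRI 1, HFD-IRI 2 or HFD-IRI 3 (adjusted p from 0.0544 to 0.107), and Col14a1 without ND-IRI 2, ND-IRI 3, HFD-IRI 2 or HFD-IRI 3 (adjusted p from 0.0546 to 0.0725). Fn1 was lost without ND-IRI 2, ND-IRI 3, HFD-IRI 1 or HFD-IRI 3 (adjusted p from 0.0878 to 0.187). The markers of stellate cells and fibroblasts share Col1a1, Col1a2, Col3a1, Dcn and Lum with the matrix list, so the lists are not separate. Of 17 markers tested, 2 (11.8%) were called, Col1a1 and Col1a2 themselves, and 15 of 17 estimates were positive. The summed markers were 226 to 301 TPM in ND-IRI and 336 to 404 TPM in HFD-IRI. Their part in the matrix result was not tested. Mmp10, a stromelysin that degrades matrix, was among the largest falls, at 1.61, 5.41 and 11.8 TPM in ND-IRI and 0.12, 0 and 0.5 TPM in HFD-IRI (-2.33, SE 0.42, adjusted p = 0.00872), with HFD-IRI 2 listed at 0.

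Marker lists of the other cell types gave 2 further calls. No marker of hepatocytes (11 tested), Kupffer cells (13), recruited and lipid-associated macrophages (17), T and natural killer cells (5), B and plasma cells (5), dendritic cells (7), sinusoidal endothelium (15) or cholangiocytes (10) passed, with 4, 3, 8, 1, 0, 1, 0 and 1 at an unadjusted p under 0.05. Of the recruited and lipid-associated macrophage markers, 14 estimates were positive and 3 negative, with a median of 0.5. At an unadjusted p under 0.05 (limma), 7 were positive and 1 negative. The alternatives gave up to 2 calls higher and up to 1 lower. In sham livers 8 of the 17 were called higher, against 4.63% of all genes. All 15 endothelial intervals lay within 1 on either side of 0. The complement component C1qb, made by Kupffer cells, was at 39.1, 58.6 and 64.2 TPM in ND-IRI and 65.2, 81.03 and 107 TPM in HFD-IRI (0.64, SE 0.22, adjusted p = 0.164, interval 0.16 to 1.12), with the groups separated but not past the threshold. Spp1, or osteopontin, an injury gene of macrophages and cholangiocytes, spread widely, at 164, 381 and 622 TPM in ND-IRI and 836, 1103 and 357 TPM in HFD-IRI (1.03, SE 0.59, adjusted p = 0.464, interval -0.26 to 2.31). The further calls were Alas2, the heme synthesis enzyme of erythroid cells, lower at 95.8, 96.8 and 108 TPM in ND-IRI and 71.6, 47.4 and 63.5 TPM in HFD-IRI (-0.73, SE 0.15, adjusted p = 0.0214), and Fabp2, described above, in the list of adipocyte, exocrine pancreas and gut markers. In the same list the adipocyte gene Cfd, or adipsin, was at 0.97, 5.01 and 2.52 TPM in ND-IRI and 59.3, 15.4 and 22.5 TPM in HFD-IRI without passing (3.04, SE 1.07, adjusted p = 0.168). Alas2 was lost without ND-IRI 2, ND-IRI 3 or HFD-IRI 2 (adjusted p from 0.0644 to 0.0815). The other markers of red blood cells and platelets mostly lay the other way: 8 of the 10 tested estimates were positive, with a median of 0.53, and Alas2 was the 1 at an unadjusted p under 0.05. Their summed level was 563, 512 and 1580 TPM in ND-IRI and 2330, 679 and 1810 TPM in HFD-IRI, so that the groups overlapped. Most of it was globin, with Hbb-bs at 252, 227 and 844 TPM in ND-IRI and 1269, 349.9 and 949 TPM in HFD-IRI. The part of retained blood in the results was not tested.

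Lipogenic, clock and mitochondrially encoded genes gave 2 or 3 calls each, a larger share than over all genes, and glucose and glycolysis genes 1 or 2. Of lipogenic genes 6.25% were higher and 12.5% lower, of clock genes 1 of 20 was higher and 2 lower, and of mitochondrially encoded transcripts 15.4% were higher, against 2.38% higher and 1.48% lower over all genes. These counts turned on single libraries. The clock list gave 5 higher and 2 lower without ND-IRI 1 and none without ND-IRI 2 or HFD-IRI 2, the mitochondrially encoded list 5 higher without HFD-IRI 2 and none without ND-IRI 2, ND-IRI 3, HFD-IRI 1 or HFD-IRI 3, and the lipogenic list none without ND-IRI 2 or HFD-IRI 1. Gpd1, which links glycolysis to triglyceride, was higher at 239, 176 and 195 TPM in ND-IRI and 369, 343 and 336 TPM in HFD-IRI (0.79, SE 0.14, adjusted p = 0.0089), the only call among 23 genes of glucose production and glycogen. Most of that list lay the other way, with 6 estimates positive, 17 negative and a median of -0.4. At an unadjusted p under 0.05 (limma), 2 were positive and 4 negative. The glucose transporter Slc2a1 was higher at 72.2, 62.5 and 84.9 TPM in ND-IRI and 190.1, 157 and 121 TPM in HFD-IRI (1.07, SE 0.24, adjusted p = 0.0267). Gapdh was lower at 77.7, 70.1 and 42.4 TPM in ND-IRI and 35.2, 20.2 and 13.8 TPM in HFD-IRI (-1.47, SE 0.297, adjusted p = 0.0173) among 28 glycolysis and hypoxia genes. Of 16 lipogenic genes, Acacb, an acetyl-CoA carboxylase, was at 34.7, 23.5 and 26.8 TPM in ND-IRI and 13.6, 14.9 and 8.93 TPM in HFD-IRI (-1.13, SE 0.25, adjusted p = 0.0291). The carbohydrate-responsive factor Mlxipl was at 123, 78.2 and 64.1 TPM in ND-IRI and 44.4, 30.2 and 52.3 TPM in HFD-IRI (-1.03, SE 0.24, adjusted p = 0.0334). The desaturase Fads2 was at 221, 132 and 154 TPM in ND-IRI and 380.4, 322 and 252 TPM in HFD-IRI (0.92, SE 0.23, adjusted p = 0.0465). The clock activators Arntl (6.64, 7.57 and 7.88 TPM in ND-IRI and 4.22, 1.41 and 2.23 TPM in HFD-IRI, log2 difference -1.28, SE 0.25, adjusted p = 0.016) and Npas2 (-0.77, SE 0.17, adjusted p = 0.0226) were lower, and the clock repressor Ciart was higher (7.22, 3.59 and 4.84 TPM in ND-IRI and 12.4, 19.8 and 26.5 TPM in HFD-IRI, log2 difference 1.71, SE 0.36, adjusted p = 0.0212). The time of day of tissue collection is not in the labels, and its part in the clock genes was not tested. Of 13 mitochondrially encoded transcripts, mt-Nd2 (0.64, SE 0.15, adjusted p = 0.0334) and mt-Cytb (0.66, SE 0.16, adjusted p = 0.0471) were higher, and quantile normalization left mt-Cytb at an adjusted p of 1. Of the calls in this group, Gpd1 held whichever library was left out, and the others were lost on leaving out at least 1 library of each diet. Slc2a1 was lost without ND-IRI 1, ND-IRI 2, HFD-IRI 1 or HFD-IRI 2 (adjusted p from 0.0527 to 0.121), Gapdh without ND-IRI 2 or HFD-IRI 2 (adjusted p = 0.0767 and 0.0636), Acacb without ND-IRI 1, ND-IRI 2, ND-IRI 3, HFD-IRI 1 or HFD-IRI 3 (adjusted p from 0.0568 to 0.0906). Mlxipl was lost without ND-IRI 1, ND-IRI 2, HFD-IRI 1 or HFD-IRI 2 (adjusted p from 0.0701 to 0.116). Fads2 was lost without ND-IRI 2, ND-IRI 3, HFD-IRI 1 or HFD-IRI 2 (adjusted p from 0.126 to 0.196), Arntl without ND-IRI 2, ND-IRI 3 or HFD-IRI 2 (adjusted p from 0.0579 to 0.0649), Npas2 without ND-IRI 2, HFD-IRI 2 or HFD-IRI 3 (adjusted p from 0.0686 to 0.108), and Ciart without ND-IRI 2, ND-IRI 3, HFD-IRI 2 or HFD-IRI 3 (adjusted p from 0.069 to 0.0974). The transcript mt-Nd2 was lost without ND-IRI 2, ND-IRI 3, HFD-IRI 1 or HFD-IRI 3 (adjusted p from 0.0884 to 0.139), and mt-Cytb without ND-IRI 1, ND-IRI 2, ND-IRI 3, HFD-IRI 1 or HFD-IRI 3 (adjusted p from 0.0648 to 0.191). Over all alternatives the adjusted p of mt-Nd2 reached 0.277.

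Hepatokines, the hormones that the liver secretes, gave 4 calls higher and 2 lower among 25. Besides Angptl4 and Lect2, Selenop, the plasma selenium carrier, was at 3548, 2677 and 2856 TPM in ND-IRI and 4395, 4536 and 5663 TPM in HFD-IRI (0.69, SE 0.15, adjusted p = 0.022). Serpina6, which binds corticosteroids, was at 109.5, 93.6 and 88.9 TPM in ND-IRI and 142, 156 and 207 TPM in HFD-IRI (0.77, SE 0.18, adjusted p = 0.0334). Serpina12, or vaspin, was lower at 51.2, 45.2 and 36.7 TPM in ND-IRI and 24.3, 11.6 and 12.8 TPM in HFD-IRI (-1.46, SE 0.31, adjusted p = 0.0211). Enho, which encodes adropin, was at 11.7, 8.9 and 19.5 TPM in ND-IRI and 3.58, 3.26 and 8.06 TPM in HFD-IRI (-1.29, SE 0.297, adjusted p = 0.0326). Lect2 held whichever library was left out. Selenop was lost without ND-IRI 2, ND-IRI 3, HFD-IRI 2 or HFD-IRI 3 (adjusted p from 0.0518 to 0.103), Serpina6 without ND-IRI 2, ND-IRI 3, HFD-IRI 2 or HFD-IRI 3 (adjusted p from 0.072 to 0.12). Over all alternatives the adjusted p of Selenop reached 0.183. Serpina12 was lost without ND-IRI 1, ND-IRI 2, HFD-IRI 2 or HFD-IRI 3 (adjusted p from 0.0536 to 0.0832), and Enho without ND-IRI 1, ND-IRI 3, HFD-IRI 1 or HFD-IRI 2 (adjusted p from 0.0503 to 0.135). Among 29 hepatic nuclear receptors and factors the estrogen receptor Esr1 was the only call, at 2.56, 2.1 and 2.4 TPM in ND-IRI and 1.17, 1 and 1.38 TPM in HFD-IRI (-0.62, SE 0.16, adjusted p = 0.048), and it was lost without ND-IRI 1, ND-IRI 2, ND-IRI 3, HFD-IRI 1, HFD-IRI 2 or HFD-IRI 3 (adjusted p from 0.0685 to 0.15). Among the largest changes outside these lists, Ly6d, a surface protein, was at 7.05, 73.5 and 71.1 TPM in ND-IRI and 611, 622 and 168 TPM in HFD-IRI (3.51, SE 0.88, adjusted p = 0.0463), with ND-IRI 1 far below the rest of its group and HFD-IRI 3 below the rest of its own. Its call was lost without ND-IRI 1, ND-IRI 2, ND-IRI 3, HFD-IRI 1 or HFD-IRI 2 (adjusted p from 0.0579 to 0.163). Selenbp2, a selenium-binding protein, fell from 95.8, 196 and 296 TPM in ND-IRI to 22.1, 9.8 and 10.7 TPM in HFD-IRI (-3.64, SE 0.59, adjusted p = 0.00498).

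Several basic programmes gave no call. These were 22 genes of cholesterol synthesis and uptake (3 at an unadjusted p under 0.05), 37 cytosolic ribosomal proteins (2), 37 nuclear-encoded respiratory chain subunits (8), 32 proteasome subunits (0) and 18 cell cycle genes (0). Their medians were -0.39, -0.09, 0.14, 0.08 and -0.07. Respiratory chain estimates were positive for 36 subunits and negative for 1, and the 8 at an unadjusted p under 0.05 were all positive. Their summed TPM were 7310 to 7890 in ND-IRI and 8190 to 8950 in HFD-IRI. For the proteasome and the respiratory chain all intervals lay within 1 on either side of 0, and for the ribosome 36 of 37 did. Cholesterol genes were not measured as tightly, with 5 of 22 such intervals. The feedback regulator Insig1, one of the most abundant members, was at 533, 227 and 198 TPM in ND-IRI and 155, 113 and 195 TPM in HFD-IRI without passing (interval -1.87 to -0.004).

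**Figure D4:**
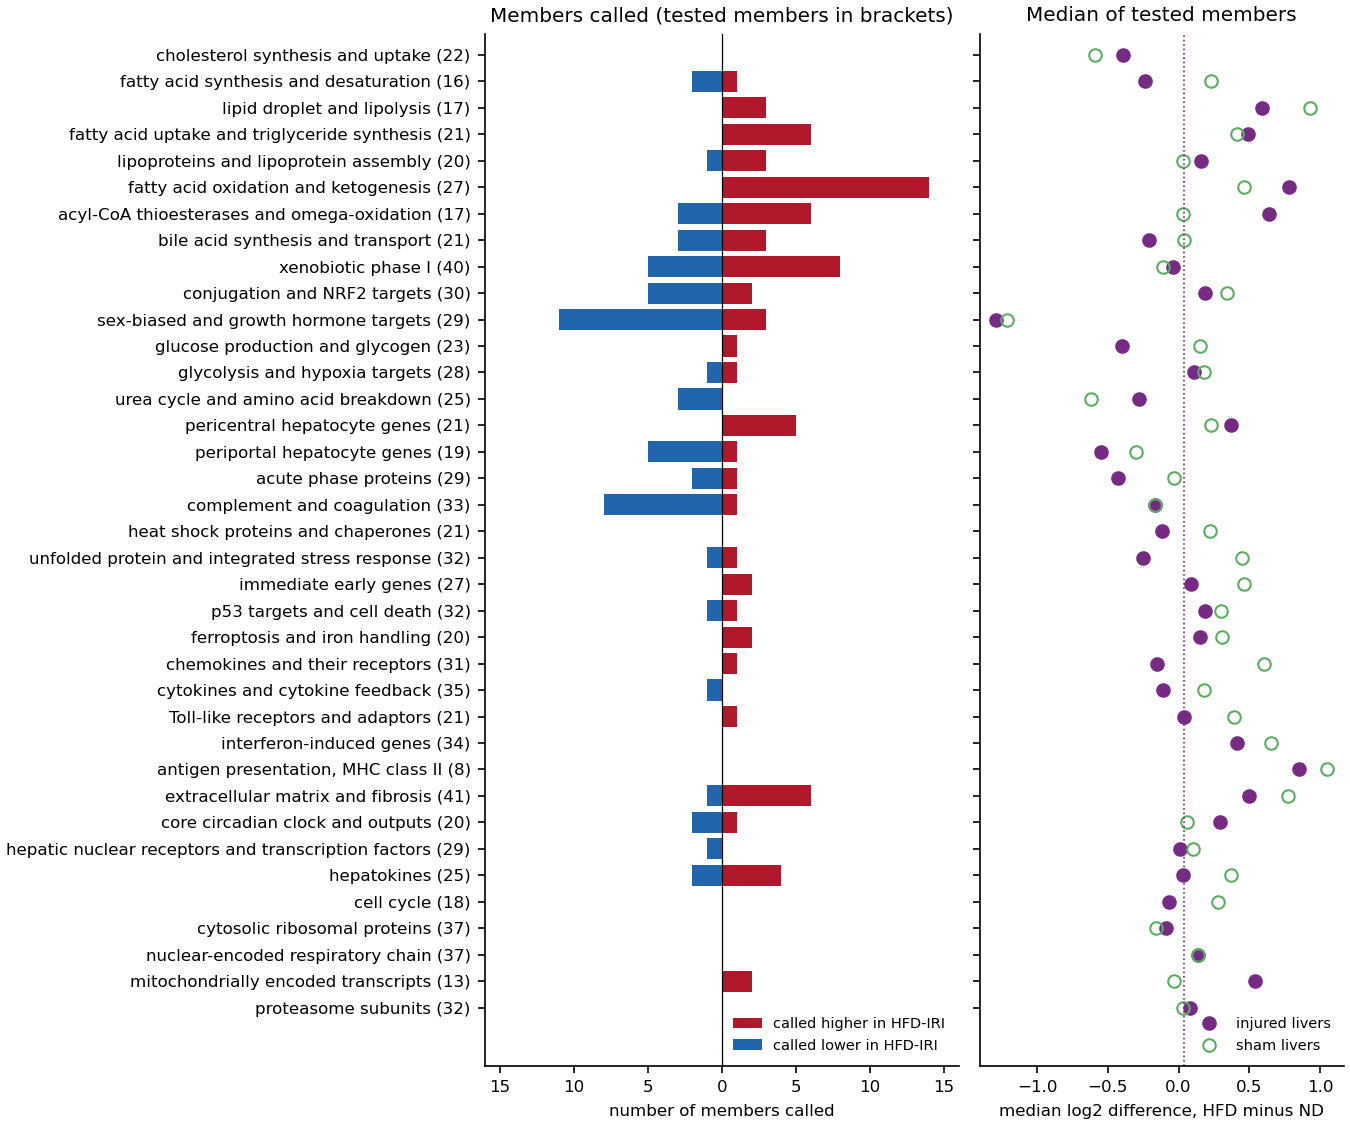
Left, the number of members called higher (red, to the right) or lower (blue, to the left) in HFD-IRI for each of 37 pathway and zonation lists, with tested members in brackets. Right, the median log2 difference of tested members in injured livers (filled) and in sham livers (open), with a dotted line at 0.04, the median of all tested genes in injured livers. Oxidation and ketogenesis has 14 members called higher, and the sex-biased list has 11 called lower.

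The sham libraries show which of these differences stood without injury. HFD-Sham against ND-Sham gave 780 calls (5.84% of tested genes), 619 higher (4.63%) and 161 lower (1.2%). The median of all genes was 0.17 there, and median-ratio scaling moved it to 0.01 and the split to 278 higher and 215 lower, and quantile normalization to 329 and 250. The contrasts share no library, but they share the estimate of each gene's spread, so their calls are not independent. Of the 318 genes higher in injured livers, 150 were also called higher in sham livers (47.2% of the 318 and 24.2% of the 619). Of the 198 lower ones, 59 were (29.8% of the 198 and 36.6% of the 161). Of all 516 calls, 427 had the same sign in sham livers. The share of all tested genes with the same sign was not computed, so this count has no background beside it. Bcar3 and Mfhas1, named because they were the only 2 with opposite calls, were lower in injured and higher in sham livers (-0.59 and 0.57 for Bcar3, -0.67 and 0.73 for Mfhas1), although the difference of differences was not called for either (adjusted p = 0.0601 and 0.0502). Among the 12 largest rises 10 were called higher in sham livers too, and among the 12 largest falls 9 were called lower. Cyp2b9 averaged 0.447 TPM in ND-Sham and 506 TPM in HFD-Sham, Cd36 35.2 and 311 TPM, and Serpina1e 9090.3 and 154 TPM.

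Whether a diet difference was itself different after injury was tested as the contrast between contrasts, which gave 13 calls (0.0973% of tested genes), 6 positive and 7 negative, with 1345 genes at an unadjusted p under 0.05. Only 8 of the 516 genes called in injured livers were among them. Means ± SD (n = 3) are given with the normal diet first. Cyp4a10 averaged 2218 ± 382 and 1746 ± 358 TPM in sham livers and 132 ± 32.9 and 1311 ± 109 TPM in injured ones (difference of differences 3.69, SE 0.29, adjusted p = 0.000379). The mean was thus no higher on the high-fat than on the normal diet without injury, and far higher than on the normal diet after it. Its close relative Cyp4a14 averaged 3684 ± 1544 and 3532 ± 1608 TPM in sham livers and 167 ± 61.9 and 1895 ± 330.4 TPM in injured ones (difference of differences 3.63, SE 0.499, adjusted p = 0.0219). For Cyp4a10 and Cyp4a14 alike, the injured means on both diets lay below both sham means. Cyp2e1 averaged 11633 ± 688 and 14174 ± 2422 TPM in sham livers and 2471 ± 282 and 8823 ± 1001 TPM in injured ones (difference of differences 1.56, SE 0.22, adjusted p = 0.0219). Cyp2c38 averaged 42.9 ± 6.04 and 113 ± 11.9 TPM in sham livers and 13.02 ± 1.52 and 92.4 ± 8.25 TPM in injured ones (difference of differences 1.35, SE 0.19, adjusted p = 0.0245). Both had higher means on the high-fat diet in both states, by a larger log2 difference after injury. On the negative side, Nat8f5, an N-acetyltransferase family member, averaged 8.55 ± 3.604 and 17.4 ± 6.82 TPM in sham livers and 34.96 ± 9.24 and 5.43 ± 2.62 TPM in injured ones (difference of differences -3.501, SE 0.54, adjusted p = 0.0394). The collagen gene Col27a1 averaged 6.46 ± 1.25 and 11.6 ± 2.705 TPM in sham livers and 11.6 ± 2.53 and 3.57 ± 0.297 TPM in injured ones (difference of differences -2.19, SE 0.29, adjusted p = 0.0166). For both genes the order of the means turned between sham and injured livers. The remaining named genes differed by diet in sham livers and were not called in injured ones. Serpina7, thyroxine-binding globulin, averaged 26.95 and 182 TPM in sham and 194 and 158 TPM in injured livers (difference of differences -3.01, SE 0.396, adjusted p = 0.0166). Osbpl3 averaged 1.21 and 25.7 TPM in sham and 1.08 and 2.71 TPM in injured livers (difference of differences -2.62, SE 0.42, adjusted p = 0.0404). Cyb5b averaged 161 and 291 TPM in sham and 157 and 137 TPM in injured livers (difference of differences -1.06, SE 0.16, adjusted p = 0.0394). Cux2 averaged 5.83 and 0.237 TPM in sham and 0.0867 and 0.0767 TPM in injured livers (difference of differences 2.38, SE 0.31, adjusted p = 0.0166). Its mean was thus lower on the high-fat diet in sham livers. Both injured groups were near 0 TPM, where log2(TPM + 1) leaves almost no room for a diet difference.

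Of these, Cyp4a10 kept its call in all 20 alternatives, with adjusted p up to 0.00552. The number of calls ranged from 2, without ND-IRI 2 or without HFD-IRI 3, to 89 without ND-IRI 1, and Lce1d was the other gene called in every alternative that gave it a value (19 of 19), so that the remaining 11 calls rest on single libraries or settings. Cyp4a14 kept its call in 14 of 20 alternatives, Serpina7 in 17, Col27a1 in 16, Cux2 in 16 of 19, Cyp2e1 in 11 of 19, Cyp2c38 and Nat8f5 in 10 of 20, and Osbpl3 and Cyb5b in 8 of 20.

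**Figure D5:**
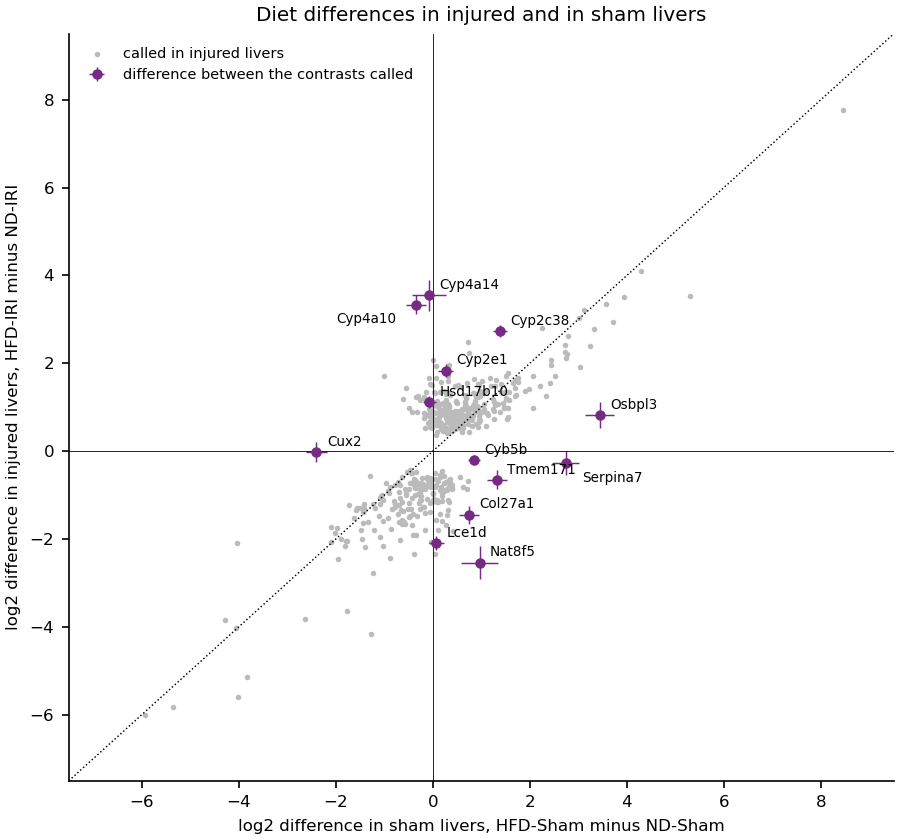
Each grey point is 1 of the 516 genes called in injured livers, with its log2 diet difference in sham livers on the horizontal axis and in injured livers on the vertical axis. Purple points with bars of 1 standard error are the 13 genes whose differences differed by test, Cyp4a10 and Cyp4a14 standing far above the dotted line of equal differences and Nat8f5 far below it.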

How the data were processed

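Poly(A) RNA of 12 mouse livers, 3 in each of 4 groups, was sequenced, per the labels' protocols, on a BGI instrument after dUTP strand marking. The authors deposited TPM, so named in the deposited file, with the same total in every library within rounding. The genome build was GRCm39 (mm39), per the submitters' processing notes, and the aligner, quantifier and annotation are not given in the sources used here. TPM keep no depth, so no counting interval was computed. A second sheet had 23 columns for 6 genes that match no sample, and these were not used.

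Of 25947 entries, 13364 genes that reached 1 TPM in 3 or more of the 12 libraries were tested as log2(TPM + 1) with limma 3.58.1 (R 4.3.3). The fit had 4 group means over all 12 libraries, a variance trend and Benjamini-Hochberg adjustment. Tables were made with pandas 2.3.3 (Python 3.11.15) and plots with matplotlib 3.10.9. Data were simulated with the ND-IRI means in all 4 groups and each gene's own spread as independent noise. Genes to be changed were drawn only from those well above the filter in ND-IRI. Of these, 77 of 100 changed by 1 and 97 of 100 changed by 2 on the log2 scale were called in HFD-IRI against ND-IRI. There were 6 false calls among 13164 unchanged genes. These shares do not cover changed genes of low TPM. The members, gene lists and tests were chosen with earlier results of these data known. Genes were named by rule: the 12 largest rises and falls with a mean of at least 5 TPM, no overlap and a named symbol; up to 4 called members of each list in each direction, or the 2 most abundant of a list with no call; the 5 largest called differences between injured and sham in each direction; and Cidec, Cd36, Pparg, Alb and Hmox1. The values of some single genes are not reported here, though list counts include them. Others are named as chosen after values were seen or as members of a group that is described whole. The settings varied 1 at a time were the pseudocount (0.1), the filter on low values (none, or 5 TPM), and the scaling, by median ratios, by quantiles, or by closing TPM again without mitochondrial genes and the top 50. Others dropped the variance trend, fitted the compared groups alone, added a replicate block, required a log2 difference of 1, or left out each library in turn.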

Additional observations from a re-analysis of the deposited data

Results flagged for a closer look

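For 13 genes the diet difference in injured livers differed from that in sham livers by the test of the difference of differences in limma, with Benjamini-Hochberg adjustment over 13364 genes, and this is what brought them here. The differences of differences were 3.69 for Cyp4a10, 3.63 for Cyp4a14, 2.38 for Cux2, 1.56 for Cyp2e1, 1.35 for Cyp2c38 and 1.19 for Hsd17b10. On the other side they were -3.5 for Nat8f5, -3.01 for Serpina7, -2.62 for Osbpl3, -2.19 for Col27a1, -2.16 for Lce1d, -1.98 for Tmem171 and -1.06 for Cyb5b. Hsd17b10, Lce1d and Tmem171 fall outside the rule for named genes and are named because of their values. Lce1d kept its call in all 19 alternatives that gave a value, Hsd17b10 in 7 of 20 and Tmem171 in 4 of 19. Groups of 3 libraries are too small for the test for a single outlying library.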

How the results depend on the processing

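The number of genes called in HFD-IRI against ND-IRI was 516. It was 304 with the injured libraries alone, 246 at a log2 difference of at least 1 and 240 to 609 on leaving out 1 library. For HFD-Sham against ND-Sham, 780 became 493 (278 higher and 215 lower) with median-ratio scaling, 367 with the sham libraries alone, 315 at a log2 difference of at least 1 and 248 to 1047 on leaving out 1 library, and quantile normalization gave 329 higher and 250 lower. For the difference of differences, 13 became 25 with a pseudocount of 0.1, 21 without a filter or with quantile normalization, 20 with TPM closed again, and 2 to 89 on leaving out 1 library. The cause was not tested. The replicate block gave 448 calls in injured livers (277 higher and 171 lower), 568 in sham livers and 9 for the difference. Deviations of same-numbered libraries correlated at 0.0729, 0.418 and -0.177 for numbers 1, 2 and 3, so that the numbers were not taken to pair the libraries. Of the 105 called genes named by rule, 52 held in every setting that gave them a value. Reversals were limited to genes that were not called. With quantile normalization Cux2 came to 0.0148, Hspa8 to 0.1083, Fscn1 to -0.0033, Rps2 to -0.0052, Pcna to -0.0271 and Psma6 to -0.0033. Median-ratio scaling gave -0.0111 for Fscn1, and TPM closed again -0.034 for Fscn1 and -0.0092 for Rps2. On leaving out 1 library the log2 difference spanned -0.3851 to 0.1573 for Cd83, -0.0426 to 0.0178 for Cux2, -0.0577 to 0.0579 for Fscn1, -0.2187 to 0.3814 for Gzmb, -0.1685 to 0.1916 for Hsp90ab1, -0.2768 to 0.2324 for Hspa8, -0.6168 to 0.2441 for Iigp1, -0.1836 to 0.0304 for Jchain, -0.1457 to 0.0578 for Mylpf, -0.0078 to 0.1255 for Psma6, -0.0055 to 0.2467 for Psmb5, -0.0006 to 0.074 for Rps2 and -0.406 to 0.2767 for Rrm2. TPM without depth limit what can be said of low genes.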

Other observations

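Called genes outside the lists are given as values. They were picked after their values were seen and from called genes alone, so that they carry no count for any pathway. The retinol dehydrogenases Rdh16 and Rdh9 were higher in HFD-IRI by 1.54 (SE 0.19, adjusted p = 0.000909) and 1.47 (SE 0.16, adjusted p = 0.000364), the saturase Retsat by 1.02 (SE 0.18, adjusted p = 0.00733), and the retinal dehydrogenases Aldh1a1 and Aldh1a3 by 1.07 (SE 0.17, adjusted p = 0.0046) and 1.51 (SE 0.299, adjusted p = 0.016). Cyp26a1, which degrades retinoic acid, was lower, at 12.9, 6.68 and 9.71 TPM in ND-IRI and 0.99, 1.41 and 2.48 TPM in HFD-IRI (-2.03, SE 0.33, adjusted p = 0.00472). For Aldh1a1 the libraries held 360.3, 338 and 439.7 TPM in ND-IRI and 863, 633 and 919 TPM in HFD-IRI, and for Rdh16 37.5, 23.4 and 21.9 TPM in ND-IRI and 88.3, 78.9 and 73.5 TPM in HFD-IRI. All these adjusted p come from the same limma fit.

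Egfr, the receptor of epidermal growth factor, was at 158, 184 and 145 TPM in ND-IRI and 42.5, 57.4 and 43.01 TPM in HFD-IRI (-1.76, SE 0.19, adjusted p = 0.000356). Fgf23, a phosphate-regulating hormone made mainly by bone, was at 12.7, 1.84 and 2.13 TPM in ND-IRI and 21.6, 17.1 and 21.1 TPM in HFD-IRI (2.07, SE 0.45, adjusted p = 0.0231). Lgals1, which encodes galectin-1, was at 30.6, 45.4 and 38.3 TPM in ND-IRI and 197, 142 and 169.6 TPM in HFD-IRI (2.13, SE 0.37, adjusted p = 0.0075), and Mertk, a receptor for apoptotic cells, at 12.1, 13.8 and 15.4 TPM in ND-IRI and 27.5, 32.6 and 25.5 TPM in HFD-IRI (0.998, SE 0.14, adjusted p = 0.00217). Dio1, a thyroid hormone deiodinase, was at 36.7, 29.6 and 73.8 TPM in ND-IRI and 106, 119.7 and 128 TPM in HFD-IRI (1.42, SE 0.28, adjusted p = 0.0144), and Pex11a, which divides peroxisomes, at 73.5, 67.5 and 80.3 TPM in ND-IRI and 139.5, 181 and 127 TPM in HFD-IRI (0.99, SE 0.18, adjusted p = 0.00956).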
